A study of Homo sapiens with 6 samples.

Results

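Mitochondrial ribosomal protein genes encode the protein part of the ribosome that works inside mitochondria. The deposited count table was searched for gene symbols that begin with MRPL or MRPS followed by a digit, and 89 of its 16315 rows matched. Of these rows, 78 are protein-coding genes, 49 with a large subunit symbol (MRPL) and 29 with a small subunit symbol (MRPS). The other 11 are 7 pseudogenes, 3 divergent transcripts and 1 antisense RNA. All 89 rows passed the filter on low values, a mean CPM (counts scaled to a common library size) of at least 1 over the 6 libraries.

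The libraries came from F36P, an established line of human erythroleukaemia cells that needs cytokine to grow. Cells labelled HDAC7 knockout carried sgHDAC7, a CRISPR guide RNA against the histone deacetylase gene HDAC7, and cells labelled WT carried sgNT, a non-targeting guide. Both kinds of cell were selected with puromycin at 1 µg/ml for 4 days, and there were 3 libraries per group, which the labels call biological replicates. The series concerns HDAC7 in acute erythroid leukaemia, and the genes of both mitoribosomal subunits are compared here between the guides. The labels do not say whether the cells were a clone or a bulk population.

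Library totals ran from 10039693 to 12521195 counts. HDAC7 messenger RNA averaged 226 ± 28.0 CPM with sgHDAC7 and 457 ± 6.51 CPM with sgNT (SD, n = 3 each), a level of 49.5% of the control (edgeR adjusted p = 0.00139). All 12 erythroid markers examined were present, and all 12 log2 fold changes were above 0 (median 0.23). Their summed level was 17702 to 24993 CPM with sgHDAC7 and 12299 to 18610 CPM with sgNT, so the groups overlapped. The markers also differed by replicate: replicate 1 stood below the mean of replicates 2 and 3 for all 12 in both groups. The median log2 difference was -0.53 in sgNT and -0.38 in sgHDAC7. None of the markers passed edgeR with group alone (3 higher at an unadjusted p under 0.05, against 9.18% of all genes). DESeq2 and limma called 0. Once replicate 1 had its own term 7 were called higher, against 5.78% of all genes. HBA2, an alpha-globin gene, had a log2 fold change of 0.61. The groups did not overlap for 1 of the 12 (8.33%), TFRC, the transferrin receptor gene, against 25.1% of all genes. Of the genes listed as markers of other cell types, 6 passed the filter on low values (CD79A, COL1A1, EPCAM, CDH1, PECAM1 and ALB). These summed to 89.2 to 94.2 CPM with sgHDAC7 and 102 to 130.2 CPM with sgNT, without overlap. All 6 log2 fold changes were below 0 (median -0.39). With group alone edgeR called 0, and with the replicate 1 term 1 lower (EPCAM), against 6.81% of all genes. The sums hide opposite swings: CDH1 had 7.01 CPM in sgNT replicate 1 against 69.5 and 63.1 CPM in replicates 2 and 3. For PECAM1 these values were 73.4 against 31.1 and 31.2 CPM. The part of either marker list in the results was not tested. In both groups replicate 1 was separated from the other libraries on the second principal component (31.4% of the variance), so values for replicate 1 and for replicates 2 and 3 are given beside the pooled ones. Replicates 2 and 3 of a group lay closer to each other (chi-square per degree of freedom 3.24 and 3.53) than to replicate 1 (7.91 to 15.6). The labels do not say that the cultures were separate, and p-values then measure only the spread between these libraries, which may be technical.

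The mitochondrial ribosome translates the 13 messenger RNAs of mitochondrial DNA, all of which encode subunits of the respiratory chain and ATP synthase. Its 2 ribosomal RNAs are made in the mitochondrion, whereas all of its proteins are encoded in the nucleus and imported, so its assembly draws on both genomes. Some of its proteins have relatives in bacterial ribosomes and others occur only in mitochondria. Erythroid cells depend on mitochondria for haem synthesis and clear them late in maturation. By the systematic names in RefSeq and textbook knowledge of the structure, 51 of the 78 genes encode large subunit proteins and 26 encode small subunit proteins. The products of MRPS18A and MRPS30 sit in the large subunit despite their symbols. MRPS36 is now called KGD4 and encodes a component of the oxoglutarate dehydrogenase complex.

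The promoters of these genes share short sequences that the choice by symbol did not use. RefSeq promoters (GRCh38.p14, 250 bases before to 50 bases after each start) were matched for 70 of the 78 genes. CCGGAAG, the core recognised by ETS factors such as GABPA, was found on either strand in 29 of the 70 (41.4%) and in 14.2% of 15843 protein-coding promoters of the same length. AAGATGGC, the core of the YY1 motif, was found in 20 of the 70 (28.6%) and in 3.91% of all. Both were present in 8 (11.4%) against 0.903%. The end of the first motif can serve as the start of the second, so matches can overlap. In 15 genes AAGATGGC lay just after the start on the gene's own strand, with its first base at positions 7 to 36 of the transcript. Of the other motifs searched on both strands, the palindromic motif of NRF1 was in 1 of the 70 (1.43%, against 1.75% of all), CACGTG (E-box) in 7 (10%, against 8.88%) and GGGCGG (GC box) in 43 (61.4%, against 58.5%).
Shown here are 60 bases before and 25 bases from the start of 6 promoters, 5′ to 3′ on the gene's strand, with matches to CCGGAAG or AAGATGGC, or to their reverse complements, in capitals. The first 3 hold both motifs close to the start, and the last 3 belong to genes that the tests below single out.
MRPL20 (chr1:1407269-1407353, minus strand): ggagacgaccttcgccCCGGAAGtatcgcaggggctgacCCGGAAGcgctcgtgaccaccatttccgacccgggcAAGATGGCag
MRPS10 (chr6:42217837-42217921, minus strand): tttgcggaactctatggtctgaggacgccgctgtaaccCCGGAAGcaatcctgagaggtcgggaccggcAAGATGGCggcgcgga
MRPS18A (chr6:43687767-43687851, minus strand): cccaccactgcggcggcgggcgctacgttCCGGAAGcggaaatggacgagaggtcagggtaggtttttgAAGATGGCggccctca
MRPS16 (chr10:73252620-73252704, minus strand): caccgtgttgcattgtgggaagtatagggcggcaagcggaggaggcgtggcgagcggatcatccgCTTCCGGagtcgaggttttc
MRPL28 (chr16:370514-370598, minus strand): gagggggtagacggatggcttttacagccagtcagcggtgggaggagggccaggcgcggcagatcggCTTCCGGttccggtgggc
MRPL39 (chr21:25607457-25607541, minus strand): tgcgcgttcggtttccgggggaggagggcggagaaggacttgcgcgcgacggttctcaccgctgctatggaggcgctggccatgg
MRPL20 carries CCGGAAG at 2 places before the start. MRPS16 and MRPL28 carry it on the other strand, just inside the transcript, and MRPL39 has neither motif in the stretch shown. Beside these matches, 23 of the 78 genes (29.5%) start within 500 bases of a protein-coding gene on the opposite strand, against 14.8% of the protein-coding genes tested. MRPS11 and MRPL46 are such a pair with each other, so a small and a large subunit gene leave the same stretch of DNA in opposite directions.

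Mitoribosomal messenger RNA as a whole stood at nearly the same level under both guides. The 49 large subunit genes summed to 3203, 3085 and 3293 TMM-scaled CPM with sgHDAC7 replicates 1, 2 and 3. In sgNT the sums were 3213, 3023 and 3099 CPM. The means were 3193 ± 104.5 and 3112 ± 95.4 CPM (SD, n = 3), and the libraries of the groups interleaved. The 29 small subunit genes summed to 1554, 1532 and 1641 CPM with sgHDAC7 and to 1551, 1497 and 1476 CPM with sgNT. Their means were 1576 ± 57.7 and 1508 ± 38.9 CPM, again with overlapping libraries. The 78 genes together took between 0.452% and 0.488% of all counts in a library. In bulk RNA a change in the number of cells of a type and a change in RNA per cell cannot be told apart.

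The balance between the subunits was also close in the groups. The summed level of large subunit genes was 2.06, 2.01 and 2.01 times that of small subunit genes in the sgHDAC7 libraries, and 2.07, 2.02 and 2.10 times in the sgNT libraries. The means were 2.03 ± 0.03 and 2.06 ± 0.04 (SD, n = 3). With MRPS18A and MRPS30 counted in the large subunit and MRPS36 in neither, the means were 2.22 ± 0.03 and 2.27 ± 0.05. The groups overlapped under either assignment.

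**Figure D1:**
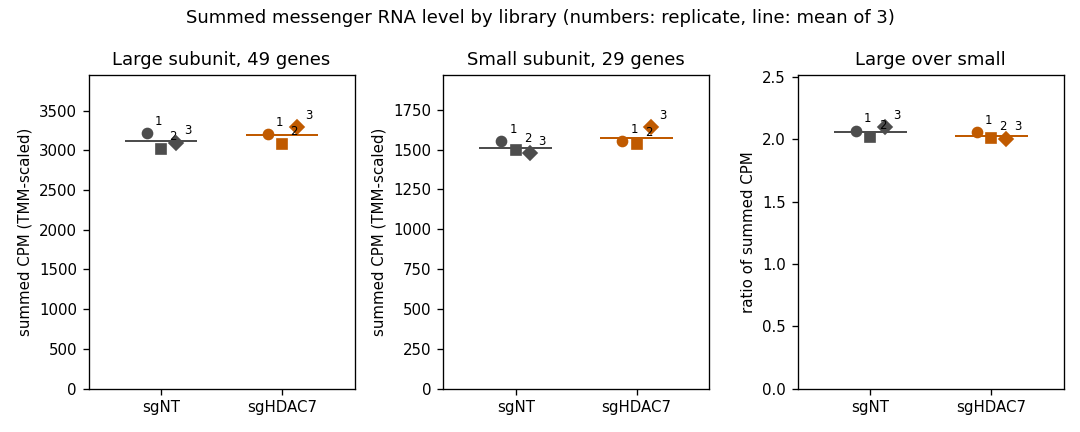
Summed TMM-scaled CPM of the large subunit genes (left) and small subunit genes (middle), and their ratio (right), for each library, with replicate numbers beside the points and the mean of 3 libraries as a line. The points of both guides overlap in each panel, between 3023 and 3293 CPM for the large and between 1476 and 1641 CPM for the small subunit.

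Levels of single members covered a wide range although the ribosome holds most of its proteins in equal numbers. Per kilobase of exon (GENCODE 29, basic set), the median in sgNT was 27.5 CPM per kb for large subunit genes and 27.2 CPM per kb for small subunit genes. The highest large subunit gene stood 27.7 times above the lowest, and the highest small subunit gene 31.2 times. MRPL12, the stalk protein that ribosomes carry in several copies, was first at 146 ± 8.04 CPM per kb (SD, n = 3). It was followed by MRPL37, a mitochondria-specific protein, at 113 ± 5.85 and MRPL4, a relative of bacterial L4, at 110.4 ± 10.07 CPM per kb. MRPL3 and MRPL16 came next at 87.3 ± 7.15 and 81.5 ± 10.7 CPM per kb. MRPL12 did not overlap its neighbour in that order.

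The small subunit order began with MRPS15 at 99.8 ± 4.33 and MRPS34 at 96.9 ± 4.01 CPM per kb, which overlapped each other. MRPS26, MRPS35 and MRPS2 followed at 62.6 ± 3.17, 54.7 ± 5.13 and 52.9 ± 6.40 CPM per kb. At the low end of the large subunit stood MRPL48, MRPL19, MRPL22, MRPL42 and MRPL50, from 13.6 ± 0.59 down to 5.28 ± 0.27 CPM per kb. At the low end of the small subunit stood MRPS11, MRPS17, MRPS33, MRPS24 and MRPS36, from 9.16 ± 0.40 down to 3.20 ± 0.36 CPM per kb. Neighbours in the order overlapped in 39 of 48 pairs for the large and in 20 of 28 pairs for the small subunit. The order depends on the gene models, because with all GENCODE transcripts 3 of the 5 highest large subunit genes and 4 of the 5 highest small subunit genes were the same.

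Some members share sequence with overlapping genes. In 16 members at least 20% of the exonic bases are shared with another annotated gene, and the use of strand in counting is not given in the sources used here. MRPS24, with 19 to 44 counts per library, shares 77% of its exonic bases with the read-through gene URGCP-MRPS24. MRPL12 and MRPL38 share 68.2% and 67.8% with other coding annotations on the same strand, and MRPS18C shares 78.9% with ABRAXAS1 on the opposite strand. Reads of these genes cannot be assigned with certainty.

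**Figure D2:**
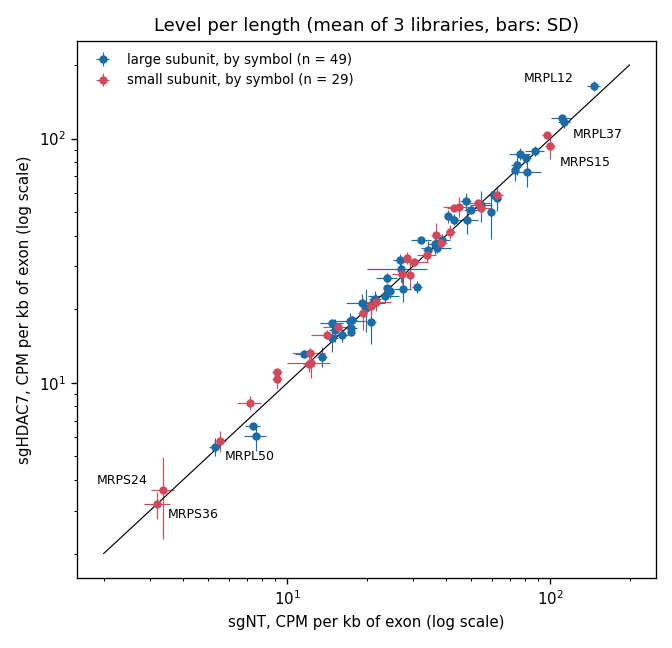
Level of each of the 78 genes per kilobase of exon in sgNT (horizontal) and sgHDAC7 (vertical), both axes logarithmic, points the mean of 3 libraries and bars the SD, with the line of equal level. The points follow the line from MRPS36 at 3.20 CPM per kb to MRPL12 at 146 CPM per kb in sgNT.

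The order of the members was largely kept under the HDAC7 guide. Of the 5 highest genes, 4 were shared between the groups in each subunit, and of the 5 lowest 5 were shared for the large and 4 for the small subunit. Across the 78 genes the correlation of log2 levels between any 2 libraries ran from 0.98 to 0.992 (Pearson, across genes, which are not independent replicates and which share gene length in every library). Within a group the median coefficient of variation of a member was 6.66% in sgHDAC7 and 5.66% in sgNT, against 8.66% and 10.6% over all genes tested. The median member is also more abundant, at 47.2 CPM against 28.2 CPM for all genes, and abundant genes have less counting error.

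No mitoribosomal protein gene passed the edgeR test of sgHDAC7 against sgNT. Among all 13841 genes tested 2.86% passed, 1.16% higher and 1.70% lower. At an unadjusted p under 0.05, 9 members were higher and 2 lower in edgeR, against 9.18% and 9.99% of all genes (19.2% in either direction). limma also called 0 members, and DESeq2 called 1, MRPS16, against 2.60% and 5.14% of all genes. The log2 fold changes of the 78 ran from -0.34 to 0.28 with a median of 0.03, and 46 were above 0. Over all genes the median was near 0 (-0.002). The median for the large subunit was 0.03 and for the small subunit 0.04, with 30 of 49 and 16 of 29 above 0.

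The precision of the data bounds the changes of most members. The unadjusted 95% interval of the log2 fold change lay within 1.5-fold in either direction for 75 of the 78, against 62.7% of all genes tested. For 26 of them it lay within 1.2-fold, against 16.1% of all genes. MRPL22, MRPL33 and MRPS24 were the 3 whose interval reached past 1.5-fold. The estimate itself passed 1.2-fold for 4 members, MRPS16 and MRPS11 higher and MRPL39 and MRPL22 lower, against 27.6% of all genes. The groups did not overlap for 18 members (23.1%), 12 higher and 6 lower, against 25.1% of all genes, 13.0% higher and 12.1% lower. This share is near the background.

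**Figure D3:**
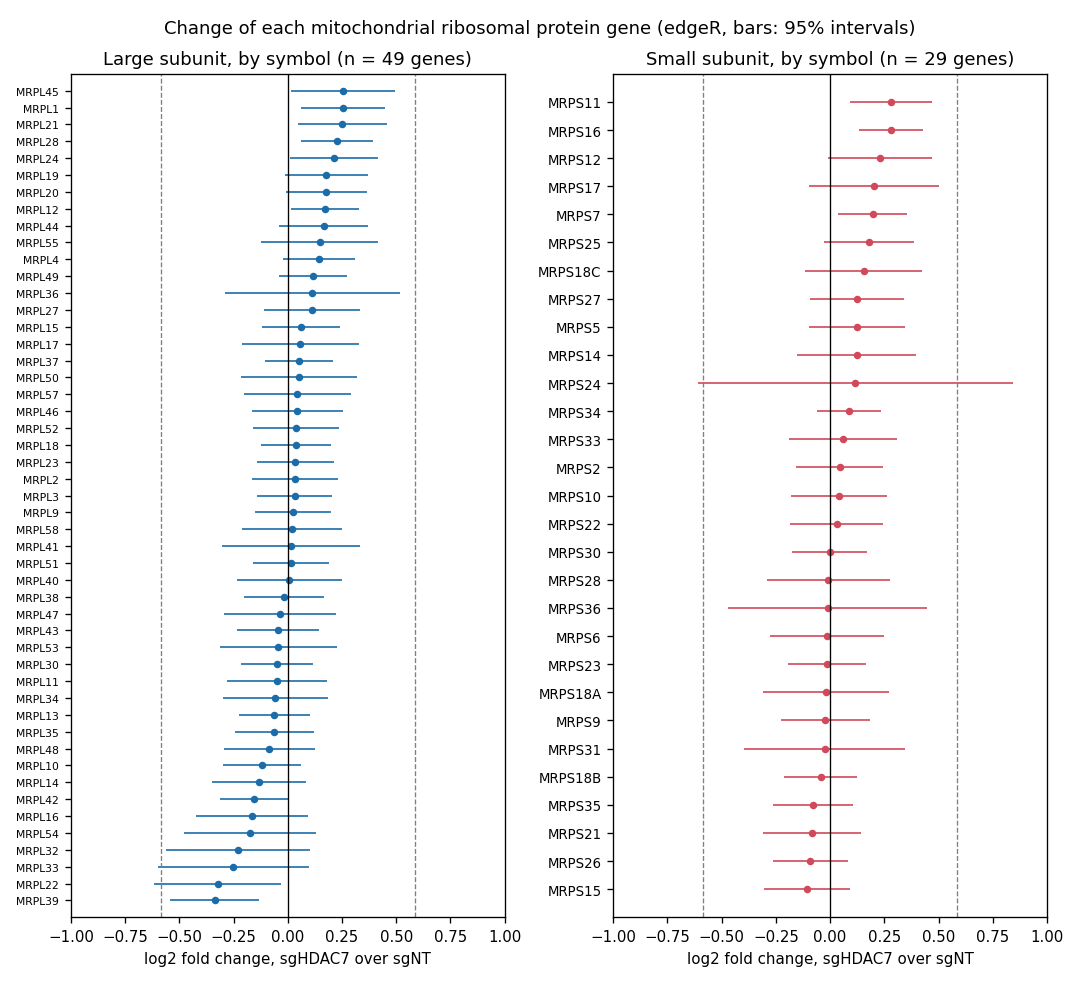
Log2 fold change of each gene, sgHDAC7 over sgNT, from edgeR, with 95% intervals as bars, for the large (left) and small (right) subunit by symbol, and dashed lines at 1.5-fold. Estimates run from -0.34 for MRPL39 to 0.28 for MRPS16 and MRPS11, and 75 of 78 intervals lie inside the dashed lines.

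Among small subunit genes, MRPS16 and MRPS11 had the largest positive estimates. MRPS16, a relative of bacterial S16 that is mutated in an inherited mitochondrial disease (10:73248843-73252693, minus strand, GRCh38), had 135.6, 137.1 and 138.4 CPM with sgHDAC7. In sgNT it had 120.5, 109.4 and 108.6 CPM, so all 3 sgHDAC7 libraries lay above all 3 controls. The means were 137 ± 1.40 and 113 ± 6.63 CPM, 1.21-fold apart (log2 0.28 ± 0.07, SE, edgeR adjusted p = 0.0569). The log2 difference was 0.17 within replicate 1 and 0.34 within replicates 2 and 3. In a fit with a term for replicate 1 it passed (edgeR adjusted p = 0.00852), and DESeq2 also called it (adjusted p = 0.0372).

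MRPS11, a relative of bacterial S11 in the platform of the subunit (15:88467453-88480773, plus strand), had 39.9, 39.9 and 41.8 CPM with sgHDAC7. In sgNT it had 33.2, 32.0 and 34.9 CPM, and the groups did not overlap. The log2 fold change was 0.28 ± 0.08 (edgeR adjusted p = 0.109, or 0.0434 with the replicate 1 term). Its divergent neighbour MRPL46, a large subunit gene, had 28.9 ± 0.89 CPM with sgHDAC7 and 28.1 ± 1.12 CPM with sgNT (log2 0.04 ± 0.09). The intervals of the pair were 0.09 to 0.47 for MRPS11 and -0.17 to 0.25 for MRPL46. MRPL46 shares 45.45% of its exonic bases with AC013489.1, a coding annotation on the same strand, so its reads cannot be assigned with certainty. The difference between the changes of MRPS11 and MRPL46 was not tested.

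In the large subunit, MRPL28, a relative of bacterial L28 (16:366969-371289, minus strand), had 88.0, 94.99 and 99.1 CPM with sgHDAC7 and 78.3, 84.2 and 78.4 CPM with sgNT. All sgHDAC7 libraries lay above the controls (log2 0.23 ± 0.07, edgeR adjusted p = 0.131, or 0.0344 with the replicate 1 term). MRPL39, a mitochondria-specific protein (21:25585656-25607517, minus strand), went the other way. It had 28.1, 29.6 and 31.2 CPM with sgHDAC7 and 38.9, 37.7 and 35.7 CPM with sgNT. The groups did not overlap, and the level was 1.26-fold lower (log2 -0.34 ± 0.09, edgeR adjusted p = 0.0823, or 0.0269 with the replicate 1 term). MRPL39 was the member with the lowest estimate.

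In the large subunit the largest positive estimates, above that of MRPL28, were those of MRPL45, which lies at the exit of the protein tunnel, MRPL1, which forms the L1 stalk, and MRPL21. Their log2 fold changes were 0.26 ± 0.11, 0.25 ± 0.09 and 0.25 ± 0.09, with edgeR adjusted p = 0.231, 0.148 and 0.175. In each of the 3 the groups did not overlap, but for MRPL1 the nearest libraries stood at 44.5 CPM (sgHDAC7) and 42.3 CPM (sgNT), both of them replicate 1. The log2 ratio of MRPL1 within replicate 1 was 0.07, against 0.34 within replicates 2 and 3.

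The next lowest estimates were those of MRPL22, a tunnel protein, MRPL33, MRPL32 and MRPL54. MRPL22 had 18.7, 17.9 and 22.6 CPM with sgHDAC7 and 27.4, 23.3 and 23.5 CPM with sgNT (log2 -0.32 ± 0.13, edgeR adjusted p = 0.211). MRPL33 and MRPL32 had log2 fold changes of -0.25 ± 0.16 and -0.23 ± 0.15, and in both a single library stood low. MRPL33 had 19.2 CPM with sgHDAC7 replicate 2, against 28.3 and 30.1 CPM in the other sgHDAC7 libraries and 30.5 to 31.2 CPM with sgNT. MRPL32 had 14.4 CPM in the same library, against 20.4 and 20.3 CPM in the other sgHDAC7 libraries and 20.7 to 22.5 CPM with sgNT. Without sgHDAC7 replicate 2 the estimates were -0.08 and -0.09. MRPL54 had -0.18 ± 0.14, with overlapping groups.

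Of the genes of known structural role, the 5 of the stalk that carries MRPL12 were mostly below 0. Their median log2 fold change was -0.05, with 1 above 0 (MRPL12) and 4 below. MRPL12 had 169 ± 8.50 CPM with sgHDAC7 and 150.4 ± 8.27 CPM with sgNT (log2 0.17 ± 0.07, edgeR adjusted p = 0.218). MRPL10, which holds the MRPL12 copies on the ribosome, had 36.6 ± 1.03 and 39.8 ± 0.38 CPM (log2 -0.12 ± 0.08, adjusted p = 0.465 in edgeR). The groups did not overlap for either gene, which makes 2 of the 5 stalk genes, against 25.1% of all genes. At the tunnel exit MRPL24 had 51.2 ± 4.42 and 44.1 ± 2.26 CPM (log2 0.21 ± 0.09), opposite in sign to MRPL22. The 8 genes of the central protuberance, where the large subunit carries many mitochondria-specific proteins, had log2 fold changes from -0.08 to 0.15. All of their groups overlapped, whereas 25.1% of all genes did not overlap. In the head of the small subunit, MRPS7 had 94.4 ± 5.57 and 82.5 ± 2.10 CPM without overlap (log2 0.20 ± 0.07, edgeR adjusted p = 0.171). The other 7 genes overlapped, so 1 of 8 (12.5%) did not, against 25.1% of all genes.

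By origin, the 16 small subunit genes with bacterial relatives had a median log2 fold change of 0.12, with 11 above 0. The 10 mitochondria-specific small subunit genes had a median of 0.008, with 5 above 0. In the large subunit the medians were 0.03 for 30 genes with bacterial relatives and 0.02 for 21 mitochondria-specific genes. The small subunit genes without overlap were MRPS7, MRPS11, MRPS16 and MRPS17, which are 4 of the 16 with bacterial relatives (25%), a share near the 25.1% of all genes. These are descriptions without a test. The median also differed little by promoter, at 0.008 for genes with CCGGAAG and 0.05 for those without it, and at 0.04 and 0.03 for genes with and without AAGATGGC.

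The 3 relatives of bacterial S18 (MRPS18A and MRPS18B carry systematic names for mitochondria-specific proteins) differ in where their products sit. MRPS18A, in the large subunit, had 22.7 ± 1.78 CPM with sgHDAC7 and 23.1 ± 3.21 CPM with sgNT. MRPS18B had 57.2 ± 0.88 and 59.0 ± 2.91 CPM, and MRPS18C 25.9 ± 1.07 and 23.3 ± 3.06 CPM. Their log2 fold changes were -0.02 ± 0.13, -0.04 ± 0.07 and 0.16 ± 0.12, and all of the groups overlapped. MRPS30, the other large subunit protein with a small subunit symbol, had 69.8 ± 4.65 and 69.9 ± 2.75 CPM. MRPS36 had 4.86 ± 0.62 and 4.90 ± 0.55 CPM, from 45 to 68 counts per library.

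Replicate 1 and replicates 2 and 3 gave different sizes of change for many members. In replicate 1, 39 of 78 genes were higher in sgHDAC7 and the median log2 ratio was 0.005. In replicates 2 and 3, 48 were higher and the median was 0.03. Of all 13841 genes, 6807 were higher in replicate 1 (median -0.004) and 7020 in replicates 2 and 3 (median 0.004). The fit with a term for replicate 1 called 3 members higher (MRPS16, MRPS11 and MRPL28) and 1 lower (MRPL39), against 5.78% and 6.81% of all genes (12.6% in either direction). On replicates 2 and 3 alone, 10 members were called higher and 1 lower, against 9.79% and 10.9% of all genes (20.7% in either direction). The latter fit compares 2 with 2 libraries that lie close together.

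**Figure D4:**
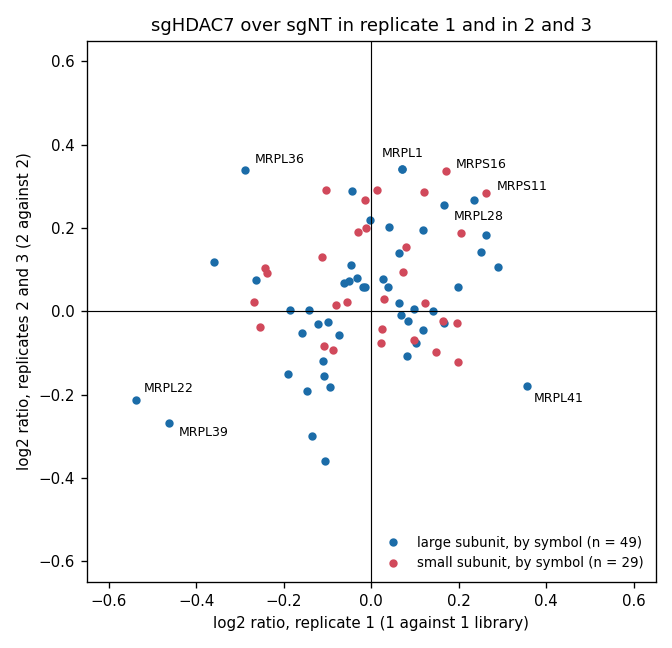
Log2 ratio of sgHDAC7 over sgNT for each gene in replicate 1 (horizontal, 1 against 1 library) and in replicates 2 and 3 (vertical, 2 against 2 libraries), coloured by subunit symbol. MRPS16, MRPS11 and MRPL28 are above 0 and MRPL39 and MRPL22 below 0 on both axes, while MRPL36 and MRPL41 change sign between them.

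The sgNT replicate 1 library stood higher than the other controls for many members. Within sgNT, 49 of 78 members were higher in replicate 1 than in the mean of replicates 2 and 3, by a median of 0.08 on the log2 scale. Within sgHDAC7, 34 were higher and the median was -0.02. Of all 13841 genes, 7135 were higher in replicate 1 within sgNT (median 0.01) and 6791 within sgHDAC7 (median -0.004). MRPL4, a relative of bacterial L4 and the most abundant member by CPM, had 306.8 CPM with sgNT replicate 1 and 261.3 and 264.7 CPM in replicates 2 and 3, against 302.7 to 310.3 CPM with sgHDAC7. Without sgNT replicate 1, edgeR called 5 members, MRPL4, MRPL20, MRPL21, MRPS12 and MRPS16, all higher in sgHDAC7, against 11.5% of all genes.

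The 11 rows that are not protein-coding held no call in edgeR with group alone, in DESeq2 or in limma, and their median level was 4.07 CPM. At an unadjusted p under 0.05, 1 was higher and 1 lower in edgeR with group alone, against 9.18% and 9.99% of all genes. MRPS10P5, a pseudogene of MRPS10 (9:37836040-37836589), had 22 to 38 counts in sgHDAC7 and 8 to 16 in sgNT (log2 0.88 ± 0.37, edgeR adjusted p = 0.224). MRPS31P5 had 6.12 ± 0.095 and 8.23 ± 1.27 CPM (log2 -0.43 ± 0.17, edgeR adjusted p = 0.218). Reads of a pseudogene and its parent gene may have been split between them. At the MRPL20 locus the divergent transcript MRPL20-DT had 8.91 ± 0.39 and 7.80 ± 0.35 CPM, the antisense RNA MRPL20-AS1 28.5 ± 1.57 and 25.6 ± 1.14 CPM, and MRPL20 itself 123 ± 7.36 and 109 ± 10.1 CPM. The log2 fold changes of these 3 were 0.19, 0.15 and 0.18. Reads from any bases that MRPL20 and MRPL20-AS1 share cannot be told apart without strand. MRPL20 shares 9.78% of its exonic bases with AL391244.1 on the opposite strand and 20.6% with RN7SL657P on its own strand. The groups did not overlap for 3 of the 11 rows (27.3%), 2 higher and 1 lower, against 25.1% of all genes. Not every row named above was therefore without overlap. The 7 rows not yet named had overlapping groups. They were the pseudogenes MRPS18CP7, MRPS18AP1, MRPL3P1, MRPL45P2 and MRPS10P1 and the divergent transcripts MRPS35-DT and MRPS30-DT.

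The RNA partners of these proteins were examined next, in lists chosen by function. The ribosomal RNAs of the mitochondrion, RNR2 of the large subunit and RNR1 of the small subunit, had lower estimates in sgHDAC7. RNR2 had 4727, 5081 and 4989 CPM with sgHDAC7 and 5916, 6366 and 5377 CPM with sgNT, without overlap (log2 -0.26 ± 0.07). It missed the threshold with group alone (edgeR adjusted p = 0.0995) and in limma (adjusted p = 0.150). It passed with the replicate 1 term (adjusted p = 0.0203 in edgeR) and in DESeq2 (adjusted p = 0.0465). RNR1 had 295 ± 24.7 and 345 ± 26.2 CPM with overlapping groups (log2 -0.23 ± 0.08, edgeR adjusted p = 0.176). These libraries were made from RNA captured on poly-T beads, so they show only the part of each ribosomal RNA that was carried through that step. The 13 mitochondrially encoded messenger RNAs held no call in either edgeR fit (0 at an unadjusted p under 0.05 with group alone, and 0 in DESeq2 and limma). On replicates 2 and 3 alone 4 of the 13 were called higher, against 9.79% of all genes. Their median log2 fold change was 0.15, with a median ratio of -0.01 in replicate 1 and 0.21 in replicates 2 and 3. Their summed level was lowest in sgNT replicate 3, at 26989 CPM against 34684 to 39192 CPM in the other libraries.

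Some mitoribosomal proteins carry other symbols. DAP3, AURKAIP1, CHCHD1 and PTCD3 of the small subunit and GADD45GIP1 of the large subunit had log2 fold changes from -0.07 to 0.15, and 0 of 5 passed in either edgeR fit. At an unadjusted p under 0.05 the count in edgeR was 0 with group alone and 2, both higher, with the replicate 1 term. Of all 13841 genes, 1835 were higher and 1902 lower at that p with the replicate 1 term. DESeq2 and limma called 0.

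Assembly factors were mostly above 0. Of 28 genes, 21 were above 0, the median log2 fold change was 0.12, and 0 passed edgeR with group alone (3 higher at an unadjusted p under 0.05, against 9.18% of all genes, and 0 in DESeq2 and limma). With the replicate 1 term 3 of the 28 were higher, against 5.78% of all genes. MRM1, which methylates the large ribosomal RNA, had 14.2 ± 0.84 and 9.67 ± 0.87 CPM (log2 0.55 ± 0.14, edgeR adjusted p = 0.0657, or 0.0201 with that term). TRUB2, a pseudouridine synthase, had 61.7 ± 4.59 and 49.98 ± 2.18 CPM (log2 0.30 ± 0.08). RBFA, a maturation factor of the small subunit, had 39.0 ± 4.51 and 31.2 ± 2.80 CPM (log2 0.32 ± 0.11). These 3 are among 5 of the 28 (17.9%) whose groups did not overlap, against 25.1% of all genes.

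Translation factors were evenly divided. Their 16 genes had a median of -0.008, with 8 above 0 and 0 passing in edgeR with either term. At an unadjusted p under 0.05 there were 0 with group alone and 1 lower with the replicate 1 term, against 1902 lower of all 13841 genes. DESeq2 and limma called 0. The 16 genes of mitochondrial DNA and RNA maintenance had a median of 0.04, with 0 passing edgeR with group alone and 0 in DESeq2 and limma. At an unadjusted p under 0.05, 2 were higher and 1 lower in edgeR with group alone, against 9.18% and 9.99% of all genes. With the replicate 1 term 1 of the 16 was higher and 0 lower, against 5.78% and 6.81% of all genes. Among them MTERF2, a protein that binds mitochondrial DNA, had 19.2 ± 3.04 and 13.96 ± 2.63 CPM (log2 0.46 ± 0.17, edgeR adjusted p = 0.187, or 0.0207 with the replicate 1 term).

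Of 8 measured regulators of mitochondrial biogenesis, 1 was higher and 1 lower with the replicate 1 term, against 5.78% and 6.81% of all genes. MYC, a general activator of ribosome and mitochondrial genes, had 644, 773 and 753 CPM with sgHDAC7 and 803, 932 and 960 CPM with sgNT, without overlap. Once replicate 1 had its own term it was called (log2 -0.31 and adjusted p = 0.00185 in edgeR), as in DESeq2 (adjusted p = 0.0372). It was not called in edgeR with group alone (adjusted p = 0.102) or in limma (adjusted p = 0.105). PPRC1, a coactivator of the PGC-1 family, had 190 ± 9.63 and 147 ± 27.8 CPM (log2 0.37 ± 0.12, edgeR adjusted p = 0.126, or 0.0151 with the replicate 1 term). The log2 ratio of PPRC1 within replicate 1 was 0.08, against 0.54 within replicates 2 and 3. The genes of the factors whose motifs were counted in the promoters, GABPA, YY1 and NRF1, had log2 fold changes of -0.17 ± 0.10, 0.07 ± 0.06 and 0.11 ± 0.13, and none passed in either fit.

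**Figure D5:**
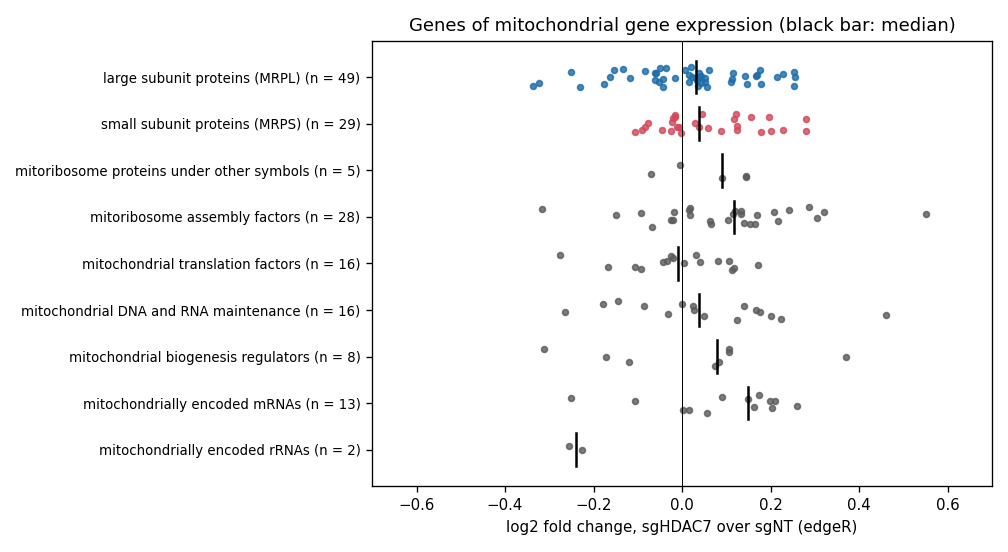
Log2 fold change of each gene, sgHDAC7 over sgNT (edgeR), in the 2 groups of mitoribosomal protein genes and in 7 lists of mitochondrial gene expression, with the median as a black bar. The medians run from -0.24 for the 2 ribosomal RNAs to 0.15 for the 13 mitochondrially encoded messenger RNAs.

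Set beside the other ribosome of the cell, 81 tested genes of the cytosolic ribosome had a median log2 fold change of -0.11, with 11 above 0, where 46 of the 78 mitoribosomal genes were above 0. None of the 81 passed edgeR with group alone (23 lower and 0 higher at an unadjusted p under 0.05, against 9.99% and 9.18% of all genes), and DESeq2 called 2 lower. With the replicate 1 term 13 of the 81 were lower and 0 higher, against 6.81% and 5.78% of all genes. The summed level was 30527, 30015 and 33461 CPM with sgHDAC7 replicates 1, 2 and 3 (mean 31334 ± 1859). In sgNT it was 33620, 33369 and 33577 CPM (mean 33522 ± 134.5), so sgHDAC7 replicate 3 lay among the controls and the groups overlapped. Nuclear-encoded subunits of the respiratory chain, 79 genes, had a median of -0.02, with 2 higher and 3 lower in that fit. The difference between these sets was not tested.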

How the data were processed

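RNA sequencing was done on 3 sgHDAC7 and 3 sgNT libraries of F36P cells. Per the labels' protocols, messenger RNA was captured from total RNA on poly-T beads and primed with random hexamers. The deposited data are 1 table of whole-number read counts per gene. Its name says CPM, but 100% of the values are whole and the column totals differ. Per the submitters' processing notes, edgeR 3.32.1 and genome build hg38 were named, with no role stated. For the aligner, counter, annotation and strand the sources used here give nothing. Columns named NC were taken as sgNT, the only other group.

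Counts were tested with edgeR 4.0.16 in R 4.3.3 (quasi-likelihood, TMM scaling, group alone, two-sided, Benjamini-Hochberg over 13841 genes averaging 1 CPM or more, threshold 0.05). CPM in the text is TMM-scaled. Standard errors were taken from the F statistic (absolute log2 fold change divided by its square root), and 95% intervals use the t quantile on edgeR's degrees of freedom. Log2 ratios for replicate 1 and for replicates 2 and 3 use log2(CPM + 0.5). DESeq2 1.42.0 and limma 3.58.1 were alternatives, with other scalings and filters, the replicate number as a block, a replicate 1 term, replicates 2 and 3 alone, and each library left out. At these depths 3 counts correspond to 0.24 to 0.299 CPM, counting error only. Gene positions come from GENCODE 29 where it names the gene, otherwise from RefSeq, both on GRCh38. The RefSeq systematic names give the subunit of 75 of the 78 genes. The mitochondrial genes were matched by their RefSeq symbols.

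Named members are those passing either edgeR fit, the 5 largest rises and falls, the 5 highest and lowest per length in each subunit, members whose symbol and structure differ, and the non-coding rows. List genes named for their change pass either fit, the 5 mitoribosomal proteins under other symbols are all named, and other named genes (MRPL10, MRPL12, MRPL24, MRPL46, MRPS7, MRPS18B, MRPS18C, MRPL4, MRPL20, MRPS12, MRPS17, MRPL36, MRPL41, MRPL38, MRPS10, RNR1, HBA2, TFRC and the factors of the motifs among them) were chosen after their values were seen. The members and lists were chosen with earlier results of these data known. The scripts were tested on simulated counts.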

Additional observations from a re-analysis of the deposited data

How the results depend on the processing

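The number of genes called over the whole table depended on the setting: 396 with group alone, 711 with DESeq2, 1743 with the replicate 1 term, 2861 on replicates 2 and 3 alone, and 28 to 1595 when single libraries were left out (28 without sgHDAC7 replicate 2 and 1595 without sgNT replicate 1). The count of mitoribosomal protein genes called was 0 with group alone, with limma, with either other scaling and with either other filter. It was 1 with DESeq2, 4 with the replicate 1 term, 11 on replicates 2 and 3 alone, and 0 to 5 when single libraries were left out, with the 5 reached without sgNT replicate 1. The cause was not tested. The median log2 fold change ran from -9e-04 to 0.05 for the large and from 0.003 to 0.08 for the small subunit over 16 alternatives.

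Replicate numbers were shared between the groups, and deviations from the group means were correlated between them. Replicate 1 of sgHDAC7 correlated at 0.28 with replicate 1 of sgNT and at -0.20 with replicates 2 and 3. Replicate 1 of sgNT correlated at -0.17 with replicates 2 and 3 of sgHDAC7. The numbers did not pair replicates 2 and 3: these correlated at 0.09 and 0.08 with the same number. Replicate 2 of sgHDAC7 correlated better with replicate 3 of sgNT (0.15). With the replicate number as a block, 998 genes (7.21%) and 1 mitoribosomal gene, MRPS16, were called.

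Of 30 named genes, 27 kept their sign in every alternative in which they were tested. The exceptions lay near 0 with group alone. With single libraries left out, MRPS18A ran from -0.0938 to 0.1003, MRPS30 from -0.0537 to 0.0366 and MRPS36 from -0.1112 to 0.0676. On replicates 2 and 3 alone MRPS30 was at 0.0229 and MRPS36 at 0.1092. Low counts limit some genes: MRPS24 rests on 19 to 44 and MRPS36 on 45 to 68 counts per library.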
